A study of Mus musculus with 12 samples.

Results

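Voltage-gated calcium and sodium channel genes were followed in the cortex of mice that lack miR-137, a brain-enriched microRNA. The genes were taken by symbol: the calcium channel families Cacna1, Cacna2d, Cacnb and Cacng and the sodium channel family Scn, without Cacna1c and Scn4b. This gave 37 genes of the 23951 rows in each deposited table, 18 encoding pore subunits and 19 encoding auxiliary subunits. The tables spell the main forebrain sodium channel gene by its older symbol Scn2a1, which the symbol patterns do not match, so it is named here only beside the others.

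RNA of C57BL/6 mouse cortex was sequenced in 12 libraries, 4 each of miR-137 knockout mice (KO, labelled miR-137 KO), heterozygous mice (Het, labelled miR-137/+) and wildtype mice (WT). The stated aim was to learn how this microRNA acts in brain development. The labels used here give neither the age of the mice nor how the allele was made, and the labels do not say whether the 4 libraries per genotype are 4 animals. Titles number the libraries of every genotype in a nested way, with a first number of 1 or 2 and a second of 1 or 2, and the protocol speaks of duplicates, so each genotype may hold 2 units with 2 libraries each. The authors deposited 1 RPKM value (reads scaled by transcript length and library size) per genotype in each of 3 pairwise tables, so no SD can be attached to a level. The verbs rose and fell are kept for genes with a q-value, the adjusted p of the authors' deposited table, below 0.05. If the libraries are technical, that p measures technical spread alone. The depth per library is unknown. Folds on the log2 scale compare log2(RPKM + 1), and adding 1 shrinks the folds of weakly expressed genes. Both mutant comparisons use the same WT libraries.

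A voltage-gated channel opens when the membrane depolarises. Its pore subunit, encoded by the Cacna1 genes and by the Scn genes ending in a, holds the ion path and the voltage sensors. Sodium channels (Nav) carry the upstroke of the action potential, and calcium channels (Cav) turn it into calcium entry for transmitter release, firing patterns and signalling to the nucleus. Auxiliary subunits set how much channel reaches the membrane and how it gates. Beta subunits (Cacnb) bind the pore protein inside the cell, alpha2delta subunits (Cacna2d) lie outside it, and the Scn genes ending in b encode single-pass sodium channel subunits that also act in cell adhesion. Most brain members of the Cacng family act on AMPA-type glutamate receptors and are called TARPs.

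MicroRNAs repress messages that pair with their seed, bases 2 to 8. The mature sequence of miR-137 is shown with its seed in capitals because miR-137 is the gene named in the mutant labels. The stretches under it come from the longest annotated 3′ UTR of the named gene, with the 7 or 8 letters counted as a match in capitals. Of these, AGCAATA pairs with bases 2 to 8. GCAATAA pairs with bases 2 to 7 only, and its last A lies opposite the first base of the microRNA. AGCAATAA pairs with bases 2 to 8 and also has that A. They are shown for the 3 Cav3 pore genes, for Scn1a, and for the channel gene with the longest match, Cacng7.
mmu-miR-137-3p: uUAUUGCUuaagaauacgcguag
Cacna1g: aggagctgttgggagaaAGCAATAcgtt
Cacna1h, first match: aaggagtactggcccatGCAATAAgacg
Cacna1h, second match: aattcaggttaaatgttGCAATAAtctg
Cacna1i, first match: ggagccagggagcagacAGCAATActtt
Cacna1i, second match: tcccttttggtctttgtGCAATAAtcaa
Scn1a: atttctttaagtcattaAGCAATAgttt
Cacng7: ggggaggggggagggaAGCAATAAgggt

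In build GRCm38 the Cacna1g stretch lies at chr11:94408853-94408880 on the minus strand. Those of Cacna1h lie at chr17:25374499-25374526 and chr17:25374375-25374402, both on the minus strand. The Cacna1i stretches are at chr15:80395736-80395763 and chr15:80398005-80398032 on the plus strand. That of Scn1a is at chr2:66271590-66271617 on the minus strand and that of Cacng7 at chr7:3368113-3368140 on the plus strand. The microRNA sequence is from RefSeq (GRCm38.p6) and the UTRs are from GENCODE M21. The search took AGCAATAA, AGCAATA and GCAATAA on the transcript's own strand, counting the longest form where they overlap.

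Of the 26 channel genes measured at 1 RPKM or more, 9 held at least 1 match (34.6%), against 16.0% of all 12879 measured genes with a 3′ UTR. The 3′ UTRs of these channel genes had a median length of 2118 nt and those of all measured genes 1237 nt. Among UTRs of 1059 to 4236 nt, 6 of 16 channel genes (37.5%) and 20.6% of 6173 genes held a match. Genes with a match that is not printed include Cacna1d, Scn2b and Scn8a, and Scn7a among the genes below 1 RPKM. A match shows only that these letters stand in the annotated UTR.

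The Mir137 gene is listed at 0 RPKM in KO, Het and WT alike, so the tables do not check the genotype labels. The 3 genotypes also differed in genes that mark other brain regions and cells. All 9 striatal projection neuron markers rose in KO and in Het, with sums of 473 RPKM in KO, 471 in Het and 66.3 in WT. All 7 choroid plexus markers fell in both, with sums of 112 RPKM in KO, 335 in Het and 2203 in WT. Thalamic markers fell in 4 of 7 in each mutant (sums of 114 RPKM in KO, 112 in Het and 144 in WT). Pan-neuronal markers summed to 2330 RPKM in KO, 2388 in Het and 2428 in WT, and 1 of 8 rose, in KO. Cortex identity genes were present at sums of 602 RPKM in KO, 712 in Het and 790 in WT. Among 6 of them, 1 rose and 1 fell in KO and 2 rose in Het. Meningeal markers fell in 1 of 6 in KO and 3 of 6 in Het. Of 6 genes listed for cerebellum and hindbrain, 3 were measured, namely Calb1, Zic1 and Zic2. Zic1 fell in both mutants and Zic2 in KO, and Calb1 passed in neither. The rest of that list, Pcp2, Gabra6 and Slc6a5, stayed under 1 RPKM in both comparisons with WT. These values do not show that cerebellar or hindbrain tissue was present. None of the 2 measured striated muscle markers passed the test in either mutant. No marker in any list was at 0 in every genotype. In bulk tissue, fewer cells of a type and less RNA per cell cannot be told apart. The part of these shifts in the channel values was not tested.

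Levels of channel genes in this cortex differed widely, with Cacna2d2 at 5.03 RPKM in Het and Scn3b at 110.2 RPKM in WT. The same 26 genes were above 1 RPKM in every genotype, and none passed that minimum in a single group alone. The other 11 stayed between 0.00451 and 0.779 RPKM. They include the muscle and retinal calcium channel genes Cacna1s, Cacna1f, Cacna2d4, Cacng1 and Cacng6, and the muscle, glial and sensory neuron sodium channel genes Scn4a, Scn7a, Scn9a, Scn10a and Scn11a. Scn9a, at 0.779 RPKM in KO, 0.634 in Het and 0.667 in WT, was the most abundant of these.

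**Figure D1:**
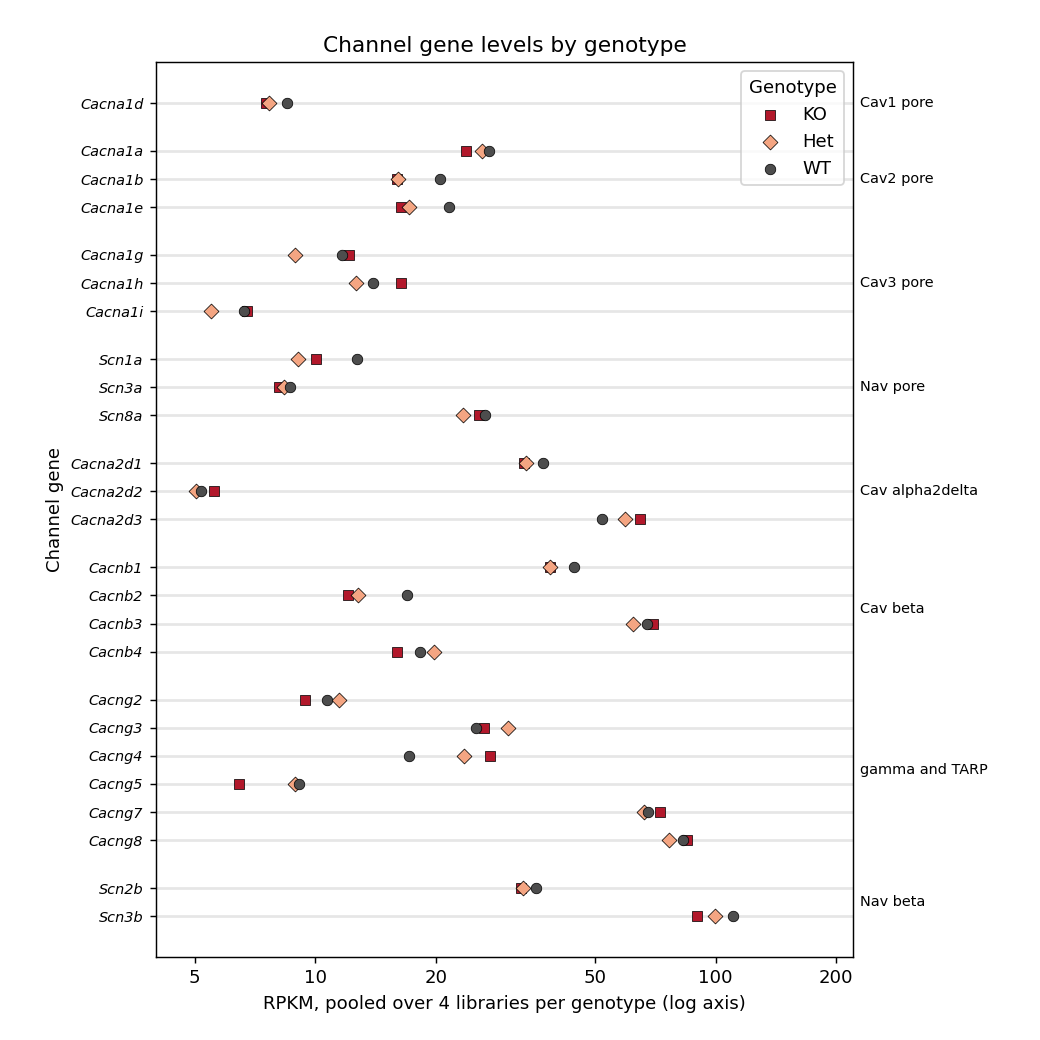
RPKM of measured channel genes on a log axis, 1 row per gene, grouped by family, with KO as squares, Het as diamonds and WT as circles, each 1 value pooled over 4 libraries. Scn3b and Cacng8 stand at the high end and Cacna2d2 and Cacna1i at the low end, and the Het points of the Cav3 genes lie left of both other genotypes.

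Heterozygous cortex had less message of several pore genes. Of 26 channel genes tested in Het against WT, 5 fell (19.2%) and 0 rose, where 5.06% of all 14159 genes tested fell and 3.95% rose in the authors' deposited table. The 5 were the pore genes Cacna1b, Cacna1e, Cacna1g and Scn1a and the beta subunit gene Cacnb2. At an unadjusted p below 0.05 there were 6 lower and 2 higher channel genes in the authors' deposited table, and 19.5% of all genes tested passed that limit. All 10 measured pore genes stood lower in Het than in WT, with a median log2 fold of -0.21, as did 72.6% of all genes in the same range of transcript length. Of 16 measured auxiliary genes 11 stood lower, with a median of -0.07. The median of all measured genes was 0.01, and 48.1% of them stood lower.

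In knockout cortex 5 of 27 channel genes tested fell (18.5%) and 1 rose (3.70%), where 7.68% of all 14059 genes tested fell and 6.72% rose, 14.4% in all, in the authors' deposited table. Those that fell were Cacna1b, Cacna1e, Scn1a, Cacnb2 and the TARP gene Cacng5, and the TARP gene Cacng4 rose. Pore genes stood lower than WT in 7 of 10 cases, with a median log2 fold of -0.12, and 67.5% of all genes with transcripts as long stood lower too. Auxiliary genes stood lower in 9 of 16, with a median of -0.14, and all measured genes had a median of 0.01. At an unadjusted p below 0.05, 6 channel genes were lower and 2 higher in the authors' deposited table, beside 26.5% of all genes tested. The called log2 folds of both comparisons with WT lay within 0.65 of 0.

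**Figure D2:**
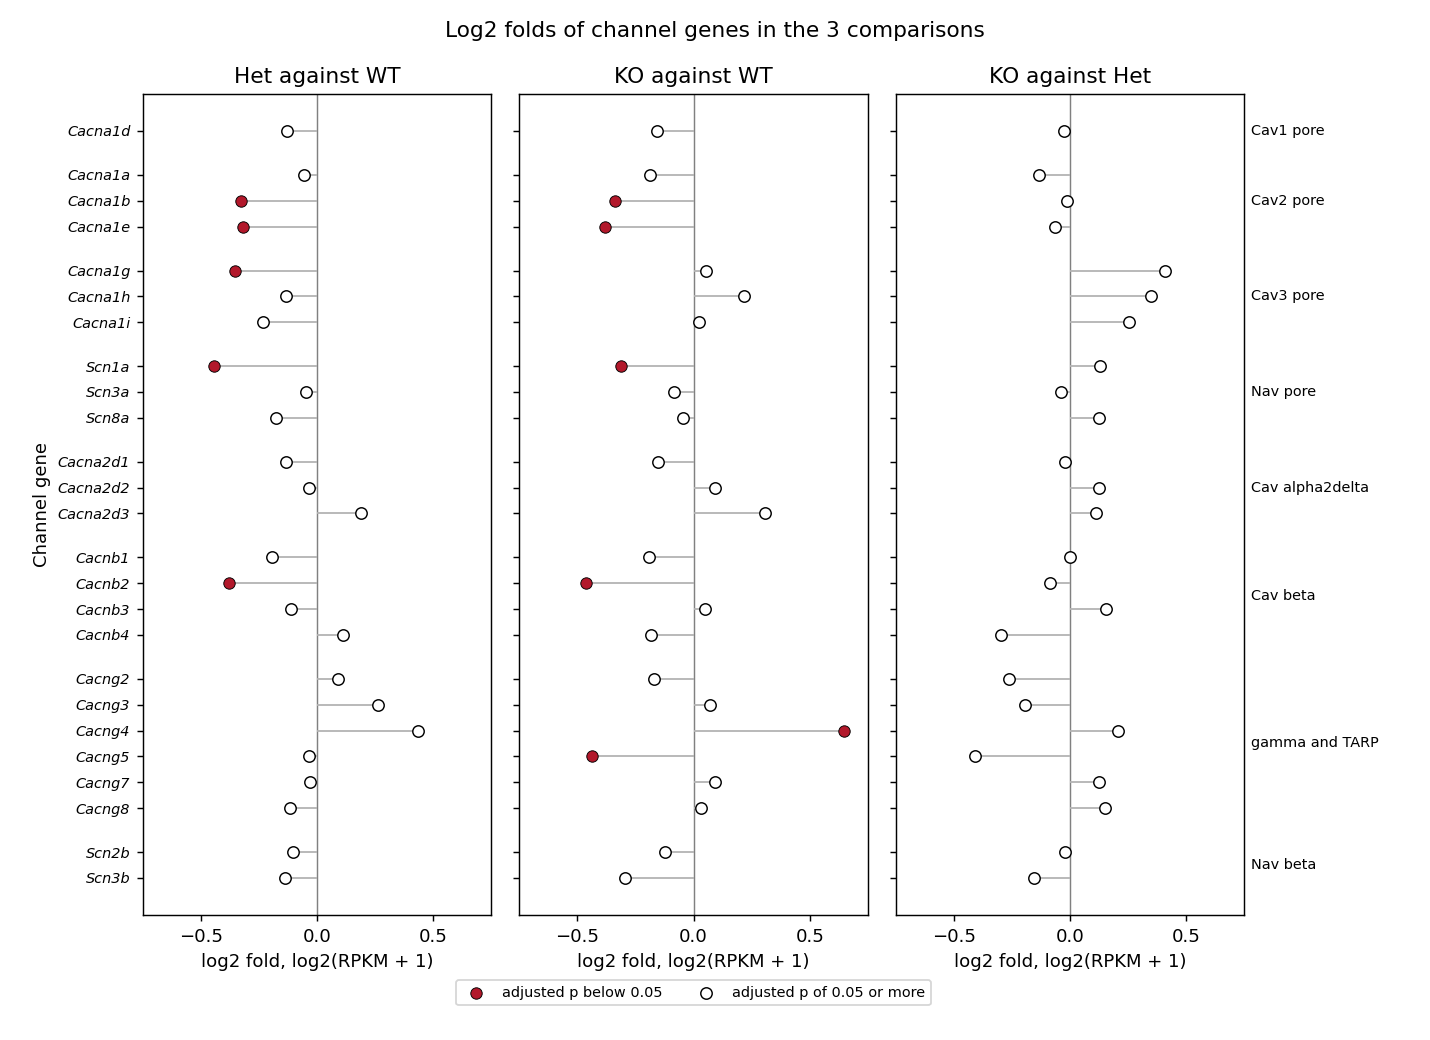
Log2 folds of measured channel genes for Het against WT, KO against WT and KO against Het, 1 row per gene. Filled points have an adjusted p below 0.05 in the authors' deposited table: 5 in Het against WT, 6 in KO against WT and 0 in KO against Het.

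The Cav2 pore genes encode the presynaptic calcium channels that drive transmitter release. Cacna1b, the N-type pore, stood at 16.0 RPKM in KO, 16.1 in Het and 20.5 in WT. Both mutants lay below WT and close to each other. It fell by 0.33 on the log2 scale in Het (adjusted p 0.0279 in the authors' deposited table) and by 0.34 in KO (adjusted p 0.0303 in the authors' deposited table). Cacna1e, the R-type pore, stood at 16.4 RPKM in KO, 17.1 in Het and 21.6 in WT, again with both mutants below WT. It fell by 0.38 in KO (adjusted p 0.0126 in the authors' deposited table) and by 0.32 in Het (adjusted p 0.0330 in the authors' deposited table). Cacna1a, the P/Q-type pore and the most abundant of the 3, stood at 23.8 RPKM in KO, 26.1 in Het and 27.2 in WT, and passed in neither mutant (adjusted p 0.307 for KO and 0.878 for Het in the authors' deposited table). Cacna1a accounted for 42.3% of summed Cav2 RPKM in KO, 44.0% in Het and 39.2% in WT.

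The Cav3 pore genes encode T-type channels, which open at low voltage and support burst firing in thalamic and cortical neurons. In this family all 3 genes stood lower in Het than in WT. In KO they stood above WT by log2 folds of 0.02 to 0.22, and none passed. Cacna1g stood at 12.1 RPKM in KO, 8.89 in Het and 11.7 in WT. It fell 1.31-fold in Het (log2 fold -0.36, adjusted p 0.0148 in the authors' deposited table), while in KO its log2 fold was 0.05 (adjusted p 0.838 in the authors' deposited table). Cacna1h stood at 16.4 RPKM in KO, 12.6 in Het and 14.0 in WT, and Cacna1i at 6.75 RPKM in KO, 5.47 in Het and 6.63 in WT. Neither passed in a comparison with WT.

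Set against Het directly, KO had higher values of all 3 Cav3 genes, with log2 folds of 0.41 for Cacna1g, 0.35 for Cacna1h and 0.26 for Cacna1i. The authors' deposited table gives them unadjusted p of 0.0014, 0.0052 and 0.0255 and adjusted p of 0.0658, 0.153 and 0.389, so none passed. When p-values of the 3 tables were adjusted together, Cacna1g passed in KO against Het (adjusted p 0.0230). The Cav3 family was singled out after its values were seen. Each of the 3 genes holds a miR-137 seed match printed above, and so do other channel genes. Of the 9 measured channel genes with a match, these 3 included, 6 stood higher in KO than in Het and 3 lower. Of the 17 with no match, 6 stood higher and 11 lower. The part of the matches in the Cav3 values was not tested. Of the thalamic markers beside them, Tcf7l2, a thalamic transcription factor gene, stood at 1.62 RPKM in KO, 1.99 in Het and 7.63 in WT. Slc17a6, the vesicular glutamate transporter gene of thalamic neurons, rose in KO against Het, at 15.1 RPKM in KO and 9.16 in Het (adjusted p 0.00517 in the authors' deposited table). Prkcd, a protein kinase C gene of thalamic relay neurons, fell in the same comparison, at 13.5 RPKM in KO and 22.5 in Het (adjusted p 0.00517 in the authors' deposited table). Their part in the Cav3 values was not tested.

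Cav1 pore genes encode L-type channels. Among those followed here, which leave out Cacna1c by the choice of genes, Cacna1d alone was measured. It stood at 7.52 RPKM in KO, 7.66 in Het and 8.50 in WT and passed in neither mutant (adjusted p 0.454 for KO and 0.642 for Het in the authors' deposited table).

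Of the sodium channel pore genes that match the symbol patterns, Scn8a was the most abundant, at 25.6 RPKM in KO, 23.3 in Het and 26.5 in WT. It encodes the channel of axon initial segments and nodes of Ranvier. Scn2a1, given below, had higher values in every genotype. Scn1a, the pore subunit on which fast-spiking interneurons depend, stood at 10.02 RPKM in KO, 9.07 in Het and 12.7 in WT. Both mutants lay below WT, Het furthest. Scn1a had a log2 fold of -0.44 in Het (adjusted p 0.00135 in the authors' deposited table, its lowest value). In KO it fell 1.27-fold (log2 fold -0.31, adjusted p 0.0414 in the authors' deposited table). That KO call was lost, at an adjusted p of 0.0630, when the 3 tables were adjusted together. Scn3a, a channel of the embryonic and newborn brain, stood at 8.11 RPKM in KO, 8.34 in Het and 8.66 in WT. Neither Scn3a nor Scn8a passed in any comparison. Scn2a1, outside the symbol patterns, stood at 40.9 RPKM in KO, 38.3 in Het and 45.2 in WT (adjusted p 0.493 for KO and 0.220 for Het in the authors' deposited table).

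Interneuron markers stood beside Scn1a at sums of 481 RPKM in KO, 409 in Het and 497 in WT, and fell in 2 of 7 in KO and 1 of 7 in Het. Pvalb, the calcium-binding protein of fast-spiking interneurons, fell in KO, at 6.58 RPKM in KO and 10.9 in WT (adjusted p 0.00831 in the authors' deposited table). In Het it stood at 8.52 RPKM and did not pass (adjusted p 0.423 in the authors' deposited table). Kcnc1, a potassium channel gene of fast-spiking neurons, fell in KO, at 10.7 RPKM in KO and 16.4 in WT (adjusted p 0.000987 in the authors' deposited table), and stood at 13.8 RPKM in Het. Sst, the somatostatin gene, which makes up most of the sum, fell in Het, at 249.6 RPKM in Het and 330.5 in WT (adjusted p 0.00841 in the authors' deposited table). In KO Sst stood at 338 RPKM. Gad1, which makes GABA, stood at 72.9 RPKM in KO, 77.6 in Het and 80.7 in WT. Gad2 stood above WT in Het and below it in KO, at 37.2 RPKM in KO, 44.3 in Het and 39.9 in WT. Lhx6 stood at 8.81 RPKM in KO, 8.45 in Het and 8.92 in WT, and Vip at 7.11, 7.10 and 8.92. Gad1, Gad2, Lhx6 and Vip passed in neither mutant. The part of these markers in the Scn1a values was not tested.

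The alpha2delta subunits carry pore proteins to the membrane, and Cacna2d1 is a target of gabapentin. No member of the family passed in any comparison. Cacna2d3, the most abundant member, stood at 64.6 RPKM in KO, 59.4 in Het and 52.0 in WT, above WT in both mutants (adjusted p 0.0658 for KO and 0.346 for Het in the authors' deposited table). Cacna2d1 stood at 33.2 RPKM in KO, 33.6 in Het and 37.0 in WT, below WT in both (adjusted p 0.434 for KO and 0.584 for Het in the authors' deposited table). Cacna2d3 accounted for 62.4% of summed alpha2delta RPKM in KO, 60.5% in Het and 55.1% in WT. Cacna2d2 was low, at 5.59 RPKM in KO, 5.03 in Het and 5.17 in WT.

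Among beta subunit genes Cacnb2 fell in both mutants. Cacnb2, a form of which slows inactivation of the channels it joins, stood at 12.0 RPKM in KO, 12.8 in Het and 17.0 in WT. The fall was 1.41-fold in KO (log2 fold -0.46, adjusted p 0.000987 in the authors' deposited table, its lowest value). In Het it was 1.32-fold (log2 fold -0.38, adjusted p 0.0213 in the authors' deposited table). In the annotation used here 3 genes overlap Cacnb2 exons on the opposite strand, and the counting is not stated to use strand, so their reads cannot be told apart from its own. Of all 37 channel genes 10, Cacna1a, Cacna1d, Cacna1h, Cacnb1, Cacnb4 and Cacng2 among them, have such an overlap. Cacnb3, the most abundant beta gene, stood at 69.6 RPKM in KO, 62.2 in Het and 67.2 to 67.3 in WT across the tables. Cacnb1 stood at 38.6 RPKM in KO, 38.5 in Het and 44.3 in WT. Cacnb4, the beta gene mutated in lethargic mice, stood at 16.0 RPKM in KO, 19.8 in Het and 18.3 in WT. None of these 3 passed in a comparison. Cacnb2 made up 8.84% of summed beta RPKM in KO, 9.61% in Het and 11.6% in WT.

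The Cacng genes held the only channel gene that rose. Cacng4, the TARP gamma-4, stood at 27.4 RPKM in KO, 23.5 in Het and 17.1 in WT. It rose 1.60-fold in KO (log2 fold 0.65, adjusted p 0.00179 in the authors' deposited table), and in Het its log2 fold was 0.43 (adjusted p 0.0605 in the authors' deposited table). KO against Het gave 0.21 (adjusted p 0.769 in the authors' deposited table), so KO and Het were not told apart. Cacng5, the TARP gamma-5, stood at 6.46 RPKM in KO, 8.88 in Het and 9.12 in WT, and passed against WT in KO alone. It fell 1.41-fold in KO (log2 fold -0.44, adjusted p 0.00729 in the authors' deposited table), and in Het its log2 fold was -0.03 (adjusted p 0.945 in the authors' deposited table). In KO against Het its log2 fold was -0.41 (adjusted p 0.0830 in the authors' deposited table), and it passed when the 3 tables were adjusted together (adjusted p 0.0301). Cacng4 and Cacng5 are neighbouring coding genes on chromosome 11 in RefSeq GRCm38.p6, and their KO folds have opposite signs.

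The other measured TARP genes had smaller folds than Cacng4 and Cacng5 in KO against WT. Cacng8, at 85.0 RPKM in KO, 76.4 in Het and 83.0 to 83.1 in WT across the tables, and Cacng7, at 72.5 RPKM in KO, 66.3 in Het and 67.8 to 67.9 in WT, were the most abundant. Cacng3 stood at 26.4 RPKM in KO, 30.3 in Het and 25.1 in WT (adjusted p 0.810 for KO and 0.227 for Het in the authors' deposited table). Cacng2, the gene of stargazin, stood at 9.42 RPKM in KO, 11.5 in Het and 10.7 in WT. None of these 4 passed in any comparison. Oligodendrocyte precursor markers, given beside Cacng4 because glial precursors also express TARPs, rose in 2 of 6 in each mutant. They summed to 167 RPKM in KO, 185 in Het and 144 in WT. Those that rose were Gpr17, a receptor of committed precursors, and Sox10, a transcription factor of the lineage. Gpr17 stood at 26.8 RPKM in KO, 35.1 in Het and 16.8 in WT (adjusted p 0.000987 for KO and 0.00135 for Het in the authors' deposited table). Sox10 stood at 16.9 RPKM in KO, 17.2 in Het and 12.5 in WT (adjusted p 0.0103 for KO and 0.0141 for Het in the authors' deposited table). Of the 4 that did not pass, Olig1 and Olig2 had higher values than WT in both mutants. Cspg4 was higher in KO and lower in Het, and Pdgfra, a defining receptor of these cells, stood at 24.8 RPKM in KO, 26.7 in Het and 27.4 in WT. Striatal projection neuron markers rose in 9 of 9 in each mutant, with sums of 473 RPKM in KO, 471 in Het and 66.3 in WT. The part of either list in the Cacng4 value was not tested.

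The sodium channel beta subunit genes Scn2b and Scn3b had lower values than WT in both mutants, though neither passed. Scn3b stood at 89.8 RPKM in KO, 99.8 in Het and 110.2 in WT (adjusted p 0.0862 for KO and 0.595 for Het in the authors' deposited table). Scn2b stood at 32.7 RPKM in KO, 33.0 in Het and 35.6 in WT. For both genes KO was lowest, Het lay between, and WT was highest. KO and Het were not told apart (adjusted p 0.825 for Scn3b and 0.998 for Scn2b in the authors' deposited table).

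Summed over families, the Cav2 pore genes stood at 56.2 RPKM in KO, 59.3 in Het and 69.3 in WT, so that KO held 81.1% and Het 85.6% of the WT sum. Cav3 genes reached 109% of WT in KO and 83.6% in Het. The Nav pore genes, without Scn2a1, stood at 91.6% of WT in KO and 84.9% in Het. Cav beta genes stood at 92.8% in KO and 90.8% in Het. The alpha2delta sum was 110% of WT in KO and 104% in Het, and the Cacng sum 107% in KO and 102% in Het. These sums carry no error and were not tested.

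**Figure D3:**
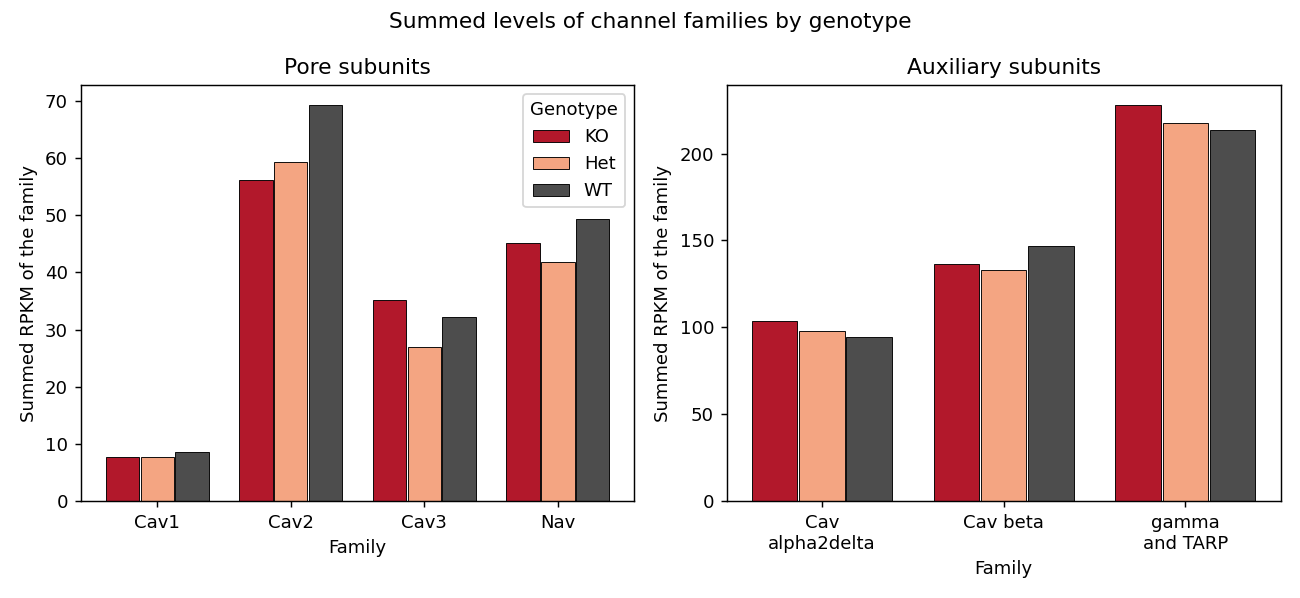
Summed RPKM of channel families, pore families on the left and calcium channel auxiliary families on the right, with bars for KO, Het and WT, without error bars because each genotype has 1 pooled value. Cav2 sums stand at 56.2, 59.3 and 69.3 RPKM in KO, Het and WT, and Cav3 sums at 35.3, 27.0 and 32.2 RPKM.

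In KO against Het no channel gene passed: 0 of 27 tested rose and 0 fell, where 0.917% of all 14062 genes tested rose and 0.953% fell, 1.87% in all, in the authors' deposited table. An unadjusted p below 0.05 was listed in the authors' deposited table for 5 of them, namely the 3 Cav3 genes, higher in KO, and Cacnb4 and Cacng5, lower in KO. Cacnb4 had a log2 fold of -0.30 (adjusted p 0.309 in the authors' deposited table). Among all genes tested, 9.81% had an unadjusted p below 0.05. Markers of other tissues also differed here: 4 of 6 measured choroid plexus markers fell and 1 of 6 meningeal markers rose. Of 4 genes measured from the cerebellum and hindbrain list, 1 fell, Zic1.

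Transcript length moved with the folds. Channel genes are long: the longest annotated transcript had a median of 9609 nt for the 10 measured pore genes and 3700 nt for the 16 auxiliary genes, and 3392 nt for all measured genes. Measured genes were put into 10 bins of equal size by that length. In Het against WT the median log2 fold was 0.14 in the bin of shortest transcripts and -0.10 in the bin of longest, in which 10.7% of tested genes fell. In KO against WT these medians were 0.14 and -0.09, and 14.5% of tested genes in the bin of longest transcripts fell. All 10 measured pore genes lie in that bin, and 4 of them fell in Het and 3 in KO. Over bins 8 to 10 together, 11.5% of tested genes fell in KO against WT, 8.33% in Het against WT and 0.992% in KO against Het. With the median of each gene's bin taken away, pore genes had a median log2 fold of -0.03 in KO and -0.11 in Het, and 5 of 10 lay below 0 in KO and 8 of 10 in Het. Auxiliary genes then had -0.08 in KO and -0.06 in Het. On that scale Cacna1b was at -0.25 in KO and -0.23 in Het, and Cacna1e at -0.29 in KO and -0.22 in Het. Scn1a was at -0.22 in KO and -0.35 in Het, and Cacnb2 at -0.44 in KO and -0.35 in Het. The part of length in the folds was not tested.

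**Figure D4:**
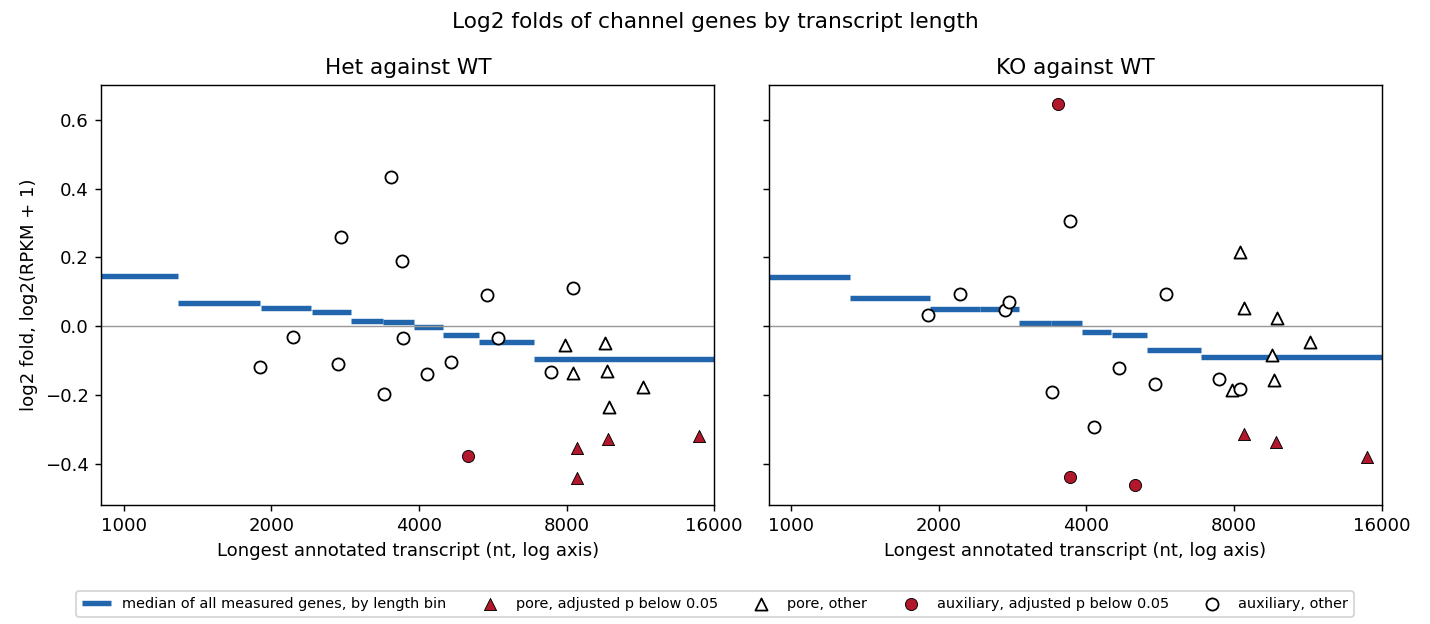
Log2 folds of measured channel genes against the length of their longest annotated transcript on a log axis, for Het against WT on the left and KO against WT on the right; triangles are pore genes, circles auxiliary genes, and filled points have an adjusted p below 0.05. Blue bars give the median of all measured genes in each of 10 length bins, which goes below 0 for long transcripts, and the filled pore genes lie under the bar of the last bin.

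Channel genes with a miR-137 seed match stood lower in Het than in WT in 9 of 9 cases, and 2 of them, Cacna1g and Scn1a, fell. Those with no match stood lower in 12 of 17, and 3 fell. In KO, 5 of 9 genes with a match stood lower than WT and 4 higher, and Scn1a fell. Of the 17 with no match 11 stood lower in KO, 4 fell and Cacng4 rose. Among all measured genes 48.8% stood lower in KO and 48.1% in Het, and 7.68% of those tested fell in KO and 5.06% in Het. Median log2 folds were -0.05 in KO and -0.15 in Het for genes with a match, and -0.17 in KO and -0.06 in Het for those with none. In the bin of longest transcripts, which holds the pore genes with a match, 67.5% of all genes stood lower in KO and 72.6% in Het. With the median of each gene's length bin taken away, genes with a match had medians of 0.04 in KO and -0.08 in Het. Those with none then had -0.09 in KO and -0.04 in Het. The part of the matches in these folds was not tested.

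Genes whose products bind or anchor the channels were read as lists. Of 18 measured sodium channel partners, 1 fell in each mutant (5.56%), where 7.68% of all genes tested fell in KO and 5.06% in Het. The gene was Unc80, a subunit of the sodium leak channel complex, at 10.2 RPKM in KO, 11.2 in Het and 16.2 in WT (adjusted p 0.000987 for KO and 0.00135 for Het in the authors' deposited table). Ank3, the ankyrin that anchors Nav channels at the axon initial segment, stood at 26.9 RPKM in KO, 25.6 in Het and 23.0 in WT and passed in neither (adjusted p 0.235 for KO and 0.528 for Het in the authors' deposited table). As a list, the sodium channel partners had a median log2 fold of -0.10 in KO and -0.02 in Het, where all measured genes had 0.01 in both.

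Of 22 measured calcium channel partners, 4 fell (18.2%) and 1 rose (4.55%) in KO, where 7.68% of all genes tested fell and 6.72% rose. In Het 2 fell (9.09%) and 0 rose, where 5.06% of all genes tested fell and 3.95% rose. Stac2, whose protein binds L-type channels, fell in both, at 6.31 RPKM in KO, 7.57 in Het and 11.8 in WT (adjusted p 0.000987 for KO and 0.00135 for Het in the authors' deposited table). Kcnma1, the calcium-activated potassium channel that couples to Cav pores, stood at 12.3 RPKM in KO, 12.1 in Het and 16.7 in WT and fell in both (adjusted p 0.00323 for KO and 0.00244 for Het in the authors' deposited table). The active-zone genes that tether Cav2 channels, Rimbp2 and Rims1, fell in KO. Rimbp2 stood at 16.0 RPKM in KO and 21.6 in WT (adjusted p 0.00780 in the authors' deposited table), and Rims1 at 19.2 RPKM in KO and 25.3 in WT (adjusted p 0.0165 in the authors' deposited table). Dpysl2, which encodes a protein that binds N-type channels, was the gene that rose, at 61.6 RPKM in KO and 47.4 in WT (adjusted p 0.0188 in the authors' deposited table). As a list, these partners had a median log2 fold of -0.04 in KO and -0.09 in Het.

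Intracellular calcium handling genes fell in 3 of 24 in each mutant (12.5%), where 7.68% of all genes tested fell in KO and 5.06% in Het. In KO 1 rose (4.17%), where 6.72% of all genes tested did. Atp2b3, a plasma membrane calcium pump, fell in both, at 25.2 RPKM in KO, 27.5 in Het and 37.4 in WT (adjusted p 0.000987 for KO and 0.00343 for Het in the authors' deposited table). Ryr2, a calcium release channel of the endoplasmic reticulum, fell in KO, at 7.88 RPKM in KO and 11.3 in WT (adjusted p 0.00254 in the authors' deposited table). Slc8a3, a sodium-calcium exchanger gene, rose in KO, at 8.48 RPKM in KO and 5.29 in WT (adjusted p 0.000987 in the authors' deposited table). Atp2a2, the pump that refills the endoplasmic reticulum, fell in KO, at 136.8 RPKM in KO and 182 in WT (adjusted p 0.0188 in the authors' deposited table). In Het, Atp2b4 and Slc8a1, another pump and another exchanger gene, fell, to 10.2 and 18.3 RPKM in Het against 14.2 and 24.4 RPKM in WT (adjusted p 0.00135 for Atp2b4 and 0.00602 for Slc8a1 in the authors' deposited table). No partner or calcium handling gene passed in KO against Het. The median of the calcium handling list was -0.07 in KO and -0.09 in Het.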

How the data were processed

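Cortex RNA of 12 libraries, 4 per genotype, was grouped by the genotype in the titles. The labels' protocols name the TruSeq RNA v2 kit, which does not mark strand, and paired-end HiSeq runs. Per the submitters' processing notes, CASAVA 1.4, TopHat2 2.0.13, Cuffdiff 2.2.1 and build mm9 were used; which tool did which step is not stated in these notes, nor is the annotation. The authors deposited RPKM pooled per genotype, per the file headers, and their own p-value and q-value per gene. Adjusting the deposited p-values under 1 by Benjamini-Hochberg gives the deposited q-values back; genes at 1 were counted as untested. Depth per library is unknown. Pooled values allow no test between libraries, so every call rests on the authors' q. KO and WT levels come from the table of KO against WT and Het levels from that of Het against WT. A measured channel gene differed by at most 0.686% between tables.

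Log2 folds used a pseudocount of 1, and a measured gene had at least 1 RPKM in either genotype. Transcript lengths and 3′ UTRs came from GENCODE M21 (GRCm38), joined by symbol, with lengths for 99.1% of measured genes; all 26 measured channel genes had both. Some items are not reported here by name, and are left out of the figures but kept in counts and medians over all channel genes. Any other channel gene could be named. Those called in a comparison get RPKM, and a fold and adjusted p for that comparison. Other measured channel genes get RPKM, some with a fold or an adjusted p. Up to 4 called genes per partner list and comparison are named by smallest adjusted p. Tcf7l2, Slc17a6, Prkcd, Pvalb, Gad1, Kcnc1, Sst, Pdgfra, Gpr17, Sox10, Olig1, Olig2, Cspg4, Ank3 and Dpysl2 were named after their values were seen. So were Calb1, Zic1, Zic2, Pcp2, Gabra6, Slc6a5, Gad2, Lhx6 and Vip. The channel genes, the 3 partner lists and the 10 marker lists were chosen with earlier results of these data known. Alternatives were a pseudocount of 0.1, minima of 5 and 0 RPKM, a q of 0.01, a minimum log2 fold of 0.5, adjustment over 3 tables, recentring, 10 length bins, and Scn2a1 added. The Benjamini-Hochberg adjustment and the folds less the length bin median were tested on simulated data, and the other steps were not. Python 3.11.15, numpy 2.4.6, pandas 2.3.3 and matplotlib 3.10.9 were used.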

Additional observations from a re-analysis of the deposited data

How the results depend on the processing

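No paired analysis was possible because the deposited tables hold 1 pooled value per genotype, and for the same reason no replicate could be left out. The counts of channel genes that rose or fell stayed as reported with a minimum of 5 RPKM, with no minimum and with Scn2a1 added. At a q below 0.01, 2 fell in KO against WT (Cacnb2 and Cacng5) and 1 in Het against WT (Scn1a). With a log2 fold of at least 0.5 required, 0 fell in either, and Cacng4 alone remained in KO. With the 3 tables adjusted together, 1 gene rose (Cacna1g) and 1 fell (Cacng5) in KO against Het, and the fall of Scn1a in KO was lost. The median log2 fold of channel genes was -0.14 in KO and -0.13 in Het against WT, and became -0.046 and -0.081 with no minimum and -0.065 and -0.080 less the median of the length bin. In KO against Het the median of -0.015 became 0.013 with no minimum, -0.018 less the length bin median and -0.015 with a pseudocount of 0.1. The cause of these shifts was not tested. No called fold changed sign under any alternative. Pooled values leave depth and the spread between libraries unseen.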
